A study of Mus musculus with 2 samples.

Results

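The genes described are those of the MHC class II antigen presentation machinery and Ciita, their transcriptional regulator, in mouse liver. They are H2-Aa, H2-Ab1, H2-Eb1, Cd74, H2-DMa, H2-Oa, H2-Ob and Ciita, 8 of the 18193 genes named on the array. They were picked by symbol, with results of the same comparison already known, and every probe set annotated to exactly 1 of them was taken, 16 in all. A gene is represented by its brightest probe set, taken over both arrays, and the others are given for comparison. RNA came from livers of mice carrying 1 functional copy of Yap1 (Yap+/-) and from livers of wild-type mice (Yap+/+). Yap1 encodes YAP, the co-activator restrained by the Hippo pathway. Mice of both genotypes were untreated, of the C57BL/6 strain after at least 6 generations of breeding, and were killed on postnatal day 30. Livers of 5 mice per genotype were pooled and each pool gave 1 array, so each genotype is a single sample, no difference was tested and no value has an error.

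MHC class II molecules display peptides from endocytosed proteins to CD4+ T cells. An alpha and a beta chain pair in the endoplasmic reticulum with the invariant chain, which blocks the groove until endosomal proteases remove it. The DM dimer then exchanges the remaining fragment for antigenic peptide, and the DO dimer restrains DM. CIITA does not bind DNA itself. It is recruited to the X and Y boxes of class II promoters by the RFX complex, CREB and NF-Y, and in many cells it is induced by interferon-gamma. In liver, class II proteins are carried mainly by Kupffer cells, dendritic cells, B cells and, at lower levels, sinusoidal endothelial cells, and little by hepatocytes.

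The promoter stretches are shown because the genes to which CIITA is recruited share a sequence layout that the choice of members did not use. RefSeq windows on build GRCm38.p6, running from 250 bases before an annotated start to 50 after it, were given for 5 of the members, H2-Aa, H2-Eb1, H2-DMa, H2-Oa and H2-Ob, and not for H2-Ab1, Cd74 and Ciita. The 110 bases before the start are printed 5′ to 3′ on the gene's strand for the 4 members that hold the layout. Capitals mark GCAAC, taken from within the X box and called the X core here, and then the Y core GATTGG, from the inverted CCAAT sequence of the Y box.
H2-Aa, chr17:34287824-34287933, minus strand: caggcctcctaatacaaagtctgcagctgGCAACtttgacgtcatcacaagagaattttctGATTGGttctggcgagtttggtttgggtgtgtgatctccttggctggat
H2-Eb1, chr17:34305757-34305866, plus strand: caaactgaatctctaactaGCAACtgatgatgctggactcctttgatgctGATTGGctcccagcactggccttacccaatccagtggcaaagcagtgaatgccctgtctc
H2-Oa, chr17:34092269-34092378, plus strand: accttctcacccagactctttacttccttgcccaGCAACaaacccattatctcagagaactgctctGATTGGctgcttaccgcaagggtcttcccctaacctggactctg
H2-Ob, chr17:34238795-34238904, plus strand: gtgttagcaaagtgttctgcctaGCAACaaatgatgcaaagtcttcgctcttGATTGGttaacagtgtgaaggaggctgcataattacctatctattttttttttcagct

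In these 4 promoters the Y core GATTGG began 49, 60, 44 and 58 bases before the start of H2-Aa, H2-Eb1, H2-Oa and H2-Ob. The X core lay upstream of it with a spacing of 27 bases in H2-Aa, 26 in H2-Eb1, 27 in H2-Oa and 24 in H2-Ob. Among all 32851 promoter windows of this length, searched on both strands, 16.1% held the Y core and 35.2% held the X core GCAAC in any place. The X core followed by the Y core at 20 to 30 bases was present in 0.204%, or 67 windows. A longer X box sequence, CAACNGA, which overlaps the X core, was held by 10.2% of windows. Of the members it was found in H2-Eb1 alone, and the shorter X core with its spacing was then chosen after these sequences had been read. The related beta chain gene H2-Eb2 holds the same pair at a spacing of 26 bases, whereas neither of the 2 windows of H2-DMa holds the pair. The windows of H2-DMb1 and H2-DMb2, beta chain genes of DM, hold the Y core but neither the X core nor the pair. The layout is present in promoters of members with high and with low array values, as described next.

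The classical class II chains and the invariant chain were all higher in the Yap+/- pool, by similar amounts. H2-Aa, the alpha chain of the I-A molecule, read 10.2 in Yap+/- liver and 9.55 in Yap+/+ liver on the log2 scale, 1.56-fold higher. H2-Ab1, its beta chain partner, read 8.72 in Yap+/- and 7.88 in Yap+/+, 1.78-fold higher. Both chains of I-A were higher in the same pool, and the beta chain gave the largest difference of the members. H2-Eb1, the beta chain of I-E, read 8.30 in Yap+/- and 7.70 in Yap+/+, 1.51-fold higher. Cd74, the invariant chain, read 8.24 in Yap+/- and 7.62 in Yap+/+, 1.54-fold higher. The log2 differences of these 4 genes lay between 0.60 and 0.84, within 0.24 of each other.

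The separate probe sets of H2-Aa and H2-Ab1 went the same way. The next brightest probe sets of H2-Aa read 9.74 and 8.70 in Yap+/- against 8.97 and 7.90 in Yap+/+, log2 differences of 0.76 and 0.80. Its remaining probe set, at 4.15 in Yap+/- and 3.86 in Yap+/+, lay under the median of all probe sets, 4.92 in Yap+/- and 4.93 in Yap+/+, and may be background. For H2-Ab1 the other probe sets read 8.01 and 7.25 in Yap+/- against 7.26 and 6.38 in Yap+/+, differences of 0.76 and 0.87. All 8 probe sets of the classical chains and Cd74 with a mean of at least 6 were at least 1.5-fold higher in Yap+/-. For scale, the 2 brightest probe sets of 1 gene disagreed about the difference between pools with a robust SD of 0.17 over 3406 genes. Probe sets of H2-Aa and H2-Ab1 carry suffixes for shared targets, and members of this gene family can contribute to each other's signal, so the gene-by-gene values are uncertain to that extent.

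**Figure D1:**
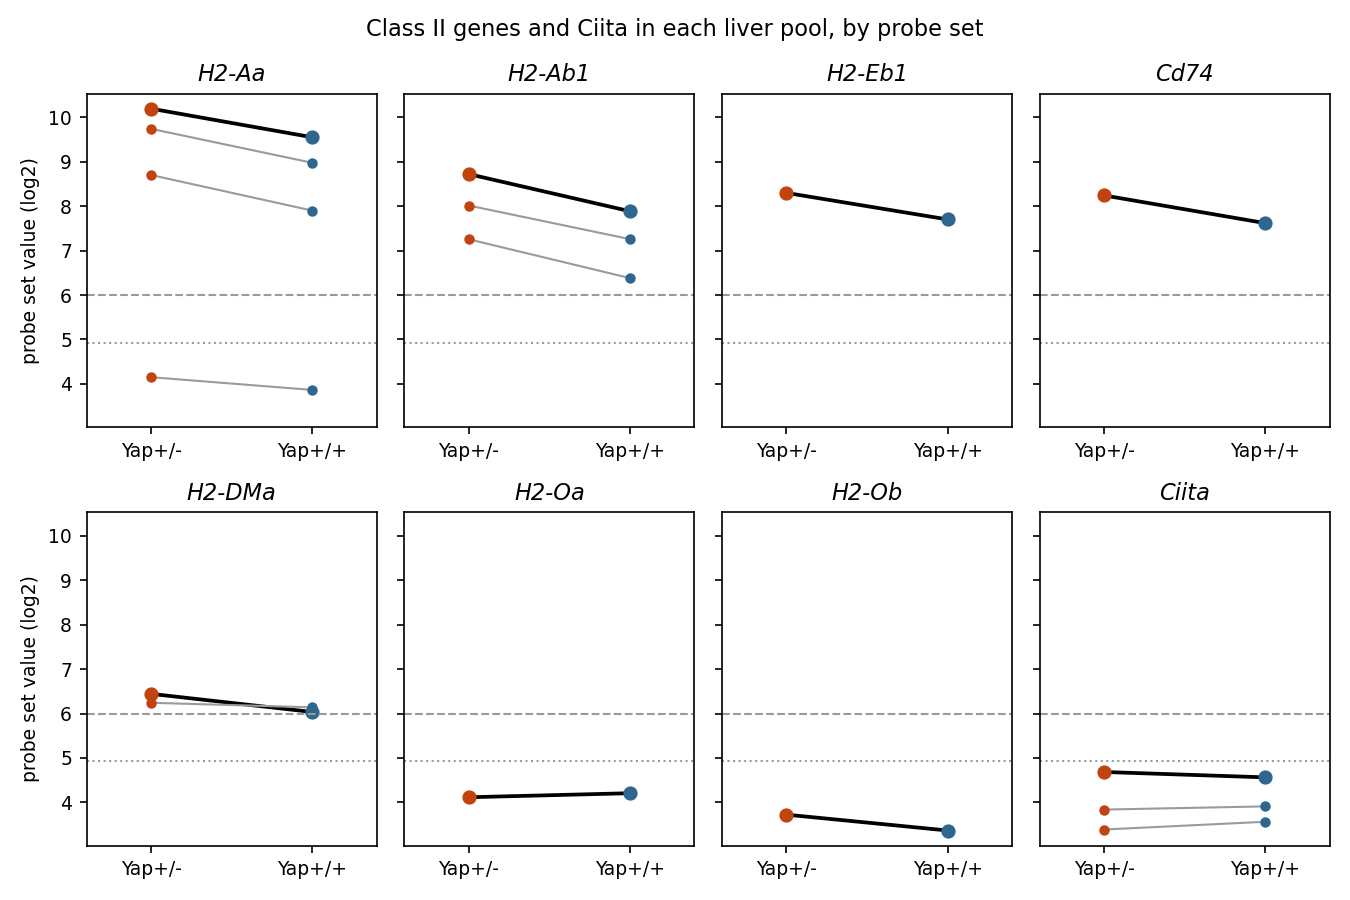
Log2 probe set values of each member in the Yap+/- pool (orange, left) and the Yap+/+ pool (blue, right), 1 line per probe set and a heavy line for the representative one. The dashed line is the minimum mean of 6 and the dotted line the median of all probe sets, and the 8 probe sets of H2-Aa, H2-Ab1, H2-Eb1 and Cd74 above the dashed line all slope down from Yap+/- to Yap+/+.

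The peptide editing genes gave smaller or unreadable differences. H2-DMa, the alpha chain of DM, read 6.44 in Yap+/- and 6.03 in Yap+/+, 1.33-fold higher, but on its second probe set the values were 6.24 in Yap+/- and 6.14 in Yap+/+, a log2 difference of 0.10. The disagreement of its probe sets was therefore wider than the usual 0.17. H2-Oa and H2-Ob, the chains of DO, read under the median of the table on both arrays. H2-Oa had 4.12 in Yap+/- and 4.21 in Yap+/+, and H2-Ob had 3.72 in Yap+/- and 3.37 in Yap+/+. A further probe set annotated to both H2-Ob and the non-coding gene Gm20506, and so left out of the members, read 5.02 in Yap+/- and 5.39 in Yap+/+, opposite in sign to the H2-Ob probe set. No direction can be read for DO at these levels.

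Ciita itself was not readable. The brightest of its probe sets gave 4.68 in Yap+/- and 4.56 in Yap+/+, a log2 difference of 0.12. The other Ciita probe sets read 3.84 and 3.39 in Yap+/- against 3.91 and 3.56 in Yap+/+, differences of -0.07 and -0.17. All 3 lay under the median of the table in both pools, and their signs disagreed. The regulator's transcript thus gave no usable comparison on these arrays, while 4 genes known to depend on it were higher in Yap+/-.

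A gene was counted as measured where its log2 values averaged at least 6. Of the 8 members 5 were measured, each with at least 6.03 in both pools, and H2-Oa, H2-Ob and Ciita were not. Passing this minimum does not show that a gene is expressed. H2-Ea, which lacks its promoter in this strain, passed it at 6.77 in Yap+/- and 6.83 in Yap+/+. H2-DMa, at 6.44 in Yap+/- and 6.03 in Yap+/+, read lower than that, so its place among the 5 is uncertain. At a size of 1.5-fold, 4 of the 5 were higher in Yap+/- and 0 lower, where 0.699% of 9299 measured genes were that much higher and 0.645% that much lower. At a log2 difference of 0.32, 5 of 5 were higher and 0 lower, against 3.86% and 3.18% of measured genes. At 2-fold 0 were higher and 0 lower, against 0.0968% and 0.226%. The members were picked with this contrast known, so these counts describe them and support nothing. The median log2 difference of the 5 was 0.62, against 0.00 for all measured genes, and with the 3 dim members included it was 0.50.

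Placed among all measured genes by difference, H2-Ab1 was number 19 from the top, H2-Aa 47, Cd74 53, H2-Eb1 61 and H2-DMa 201. Brightness matters for such places, since dim genes differ more between arrays. Among the 1073 genes within 0.5 of the mean of H2-Aa, the robust SD of the difference was 0.13 and 5 genes, H2-Aa included, differed at least as much. Among the 1533 genes near the level of H2-DMa the robust SD was 0.19 and 46 genes did. Counted in the same way, there were 3 of 2059 genes for H2-Ab1, 11 of 2165 for Cd74 and 13 of 2151 for H2-Eb1. H2-DMa was less set apart from genes of its level than H2-Aa. Such figures describe these arrays alone, since mice and pools were not replicated. The members were picked with this contrast known, so nothing is read from their high places.

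**Figure D2:**
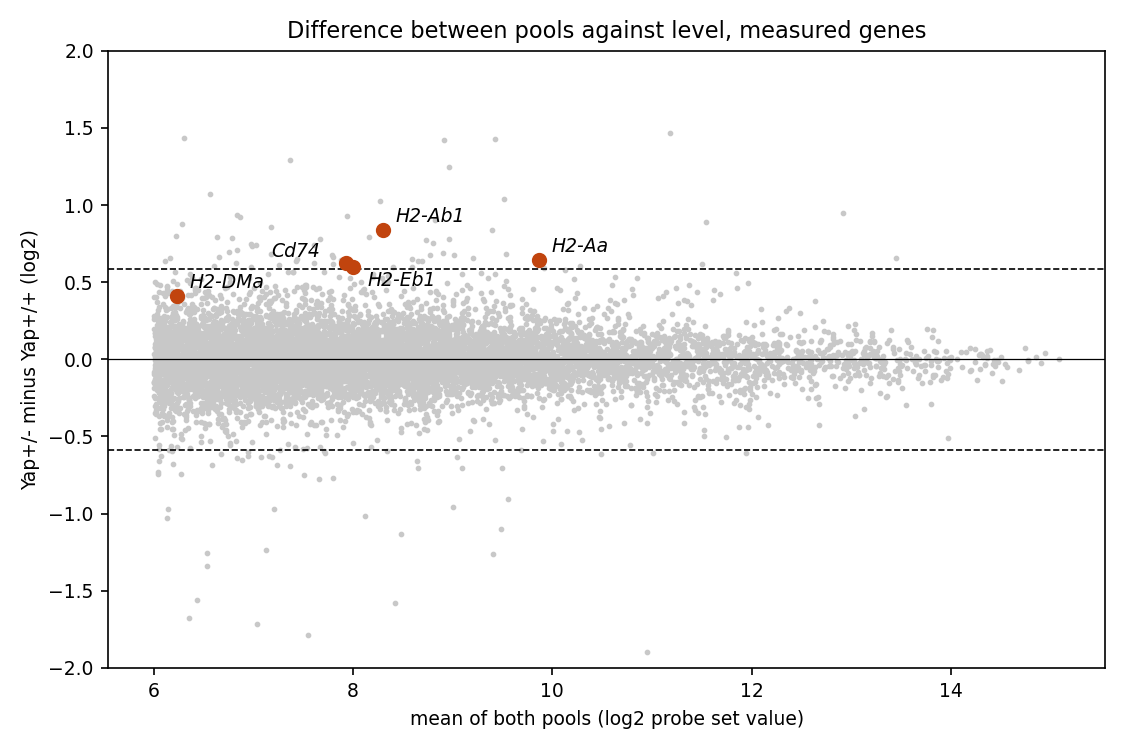
Difference between pools (Yap+/- minus Yap+/+, log2) against the mean of both pools for the 9299 measured genes (grey), with the 5 measured members in orange, dashed lines at 1.5-fold and 7 genes outside the plotted range. H2-Aa, H2-Ab1, H2-Eb1 and Cd74 lie above the upper line and H2-DMa below it.

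Among the remaining class II genes, H2-Ea bears on the strain. C57BL/6 mice make no I-E alpha chain because a deletion removes the H2-Ea promoter, so that H2-Eb1 is transcribed without its partner. The brightest probe set of H2-Ea nevertheless had 6.77 in Yap+/- and 6.83 in Yap+/+, a difference of -0.06. Its other probe sets lay at 3.36 and 2.86 in Yap+/- against 3.63 and 2.65 in Yap+/+, down to near the lowest value of the table, 2.49. Signal at the first H2-Ea probe set was nearly the same in both pools. H2-Eb2 read 5.36 in both pools, 1 of 2136 probe sets with identical values. H2-DMb2, a beta chain of DM, read 4.91 in Yap+/- and 4.94 in Yap+/+, and a probe set shared by H2-DMb1 and H2-DMb2 read 5.41 in Yap+/- and 5.27 in Yap+/+. H2-DMb1 had no probe set of its own, so the DM beta chain could not be set beside H2-DMa.

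For the lists that follow, 48.8% of all measured genes were higher in Yap+/- by any amount and 0.699% by 1.5-fold, so a count of 0 at 1.5-fold in a short list sets it apart from nothing. The factors that carry CIITA to these promoters were measured except Nfya, an NF-Y subunit under the minimum at 5.95 in Yap+/- and 5.79 in Yap+/+. Of 9 measured genes of the class II transcription complex and its histone acetyltransferases, 6 were higher in Yap+/- and 3 lower, 0 by 1.5-fold, and the median was 0.05 in log2. Rfx5, the DNA-binding RFX subunit, read 7.71 in Yap+/- and 7.78 in Yap+/+. Rfxank, its ankyrin partner, had the lowest difference at -0.23. Nfyb, an NF-Y subunit, had -0.11 on its brightest probe set and 0.03 on the other measured one. On the positive side were the acetyltransferases Crebbp at 0.25 and Ep300 at 0.17, and Creb1 at 0.19. The other measured probe sets of Crebbp differed by 0.02 and 0.03 only.

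Genes that lead to Ciita induction had small differences on their brightest probe sets. On these all 6 measured ones were higher in Yap+/-, against 48.8% of all measured genes, and 0 by 1.5-fold, with a median of 0.07. The interferon-responsive factor Irf1 was highest at 8.92 in Yap+/- and 8.72 in Yap+/+, 1.15-fold, and the kinase Jak2 followed at 1.13-fold. Jak1 gave 0.08 on its brightest probe set and -0.07 on the other. Usf1 gave 0.02 on its brightest probe set and -0.41 on the other measured one. Ifngr2 gave 0.008 and 0.0, so the shared direction rests in part on values near 0. Ifng, the cytokine itself, read 3.09 in Yap+/- and 3.13 in Yap+/+, under the median of the table.

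Targets of interferon-gamma other than class II included genes with larger differences. Of 11 measured, 9 were higher and 2 lower in Yap+/-, and 1 was higher by 1.5-fold, against 48.8% and 0.699% of all measured genes higher by any amount and by 1.5-fold. The median was 0.28. Cxcl9, a chemokine for activated T cells, read 9.35 in Yap+/- and 8.67 in Yap+/+, 1.60-fold higher, which lies within the range of the 3 classical chains and Cd74. The guanylate-binding protein genes Gbp6 and Gbp3 were 1.41-fold and 1.35-fold higher, and a second Gbp6 probe set gave a log2 difference of 0.42. The lowest were the immunity-related GTPases Irgm1 at -0.08 and Irgm2 at -0.06. The list held values on both sides of 0, with its largest ones on the higher side.

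Antigen processing and the class I pathway had medians nearer to 0. Of 11 measured genes of endosomal processing and class II traffic, 7 were higher and 4 lower, against 48.8% of all measured genes higher, and 0 by 1.5-fold, with a median of 0.07. Ctss, cathepsin S, which trims the invariant chain, read 10.7 in Yap+/- and 10.5 in Yap+/+, 1.14-fold higher. Ifi30, the lysosomal thiol reductase GILT, was 1.19-fold higher, and Hspa8, a chaperone with wider roles, 1.24-fold, though its other measured probe sets ranged from -0.18 to 0.48. The ubiquitin ligase gene Marchf8 had -0.03, and Ctsl, cathepsin L, had -0.02 on its brightest probe set and 0.52 on another. Of 14 measured class I genes, 10 were higher and 4 lower, against 48.8% of all measured genes higher, and 0 by 1.5-fold, with a median of 0.08. H2-K1, a class I heavy chain, read 13.0 in both pools, and its other measured probe sets differed by up to 0.22. H2-D1, the other classical heavy chain, read 12.4 in Yap+/- and 12.2 in Yap+/+, and all 5 of its other measured probe sets were higher in Yap+/-, by 0.12 to 0.48. B2m, the class I light chain, read 14.2 in Yap+/- and 14.1 in Yap+/+. The peptide transporter genes Tap1 and Tap2 had the highest differences, 0.24 and 0.20, and Pdia3, a chaperone of peptide loading, the lowest at -0.12. The other measured probe set of Pdia3 gave 0.16. Of 7 co-stimulatory genes only Icam1, an adhesion molecule of antigen presentation, was measured, at 7.15 in Yap+/- and 6.81 in Yap+/+. Cd86, with 5.48 in Yap+/- and 5.20 in Yap+/+, Cd80 and Cd40 were under the minimum.

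Genes beside the class II members on chromosome 17 had smaller differences than the brightest probe sets of the measured members. In the order of the RefSeq gene table, the members H2-Oa to H2-Eb1 and 10 genes to each side make a stretch of 34 genes, of which 21 had a value. The 10 measured genes that are no members ranged from -0.12 for the zinc transporter gene Slc39a7 to 0.30 for Rxrb, a retinoid X receptor. None of the 10 was 1.5-fold higher, and the 4 measured members of the stretch had at least 0.41 on their brightest probe sets. The second probe set of H2-DMa, at 0.10, lay below Rxrb, Tap1 and Tap2. The members were picked with this contrast known, so nothing is read from the comparison with their neighbours. Tap1, Tap2, Psmb8 and Psmb9, which lie between H2-DMa and H2-Ob and serve class I presentation, had 0.24, 0.20, 0.10 and 0.10. The stretch overlaps the class I list by these genes and the list of other class II genes by H2-DMb2, H2-Eb2 and H2-Ea.

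**Figure D3:**
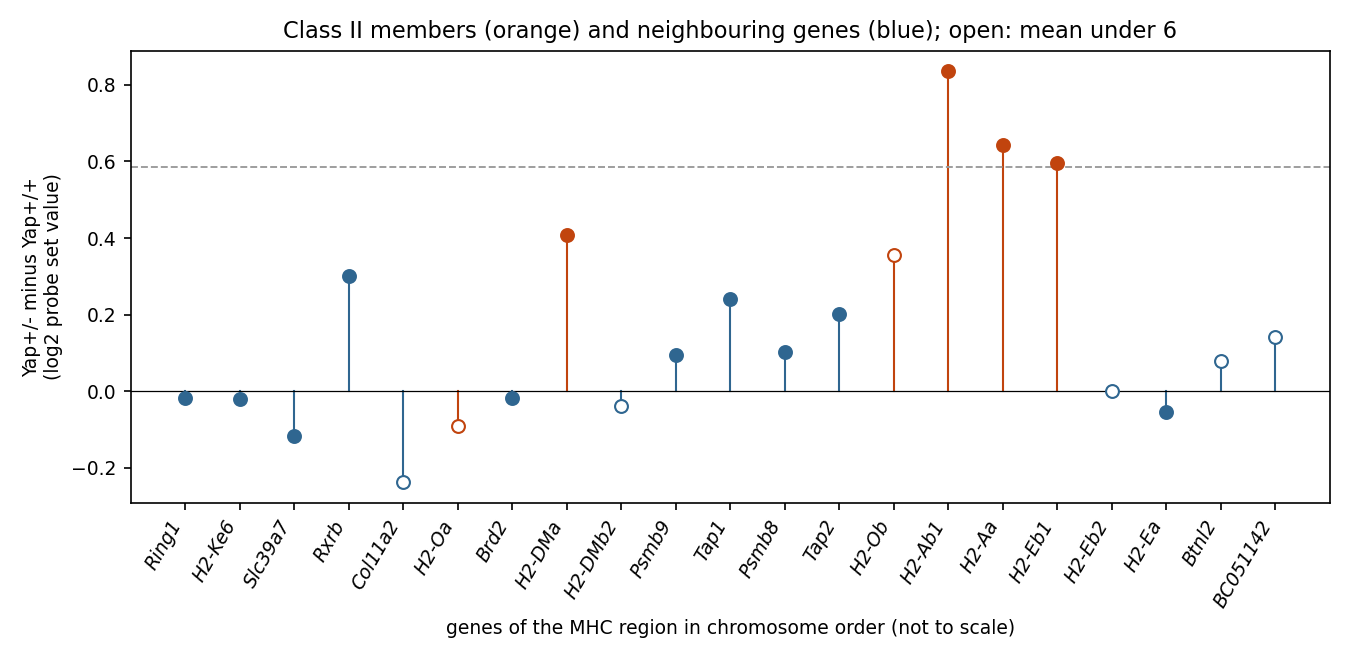
Difference between pools (Yap+/- minus Yap+/+, log2) for the 21 genes with a value in the MHC region, in chromosome order and not to scale. Filled points are measured genes, and the 3 adjacent members H2-Ab1, H2-Aa and H2-Eb1 stand above the dashed 1.5-fold line. H2-Eb2 and H2-Ea beside them lie near 0, but H2-Eb2 is under the minimum and H2-Ea lacks its promoter in this strain.

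The same promoter layout was looked for outside the class II family. Of measured genes outside the class II family, 22 held the X and Y cores at 20 to 30 bases in a promoter window. Their differences ranged from -0.29 to 0.41 with a median of -0.04. At 1.5-fold 0 were higher and 0 lower in Yap+/-, a count from which nothing can be read, since only 0.699% and 0.645% of all measured genes were. H2-Oa and H2-Ob, which hold the layout, were too dim to be read.

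Cells that carry class II proteins in liver were followed by their markers. All 12 Kupffer cell and macrophage markers were measured and higher in Yap+/-, 1 of them by 1.5-fold, against 48.8% and 0.699% of all measured genes. Their median was 0.29. Marco, a scavenger receptor, was 1.54-fold higher, Cd68 1.39-fold, Cd5l 1.35-fold and Adgre1, a surface receptor of macrophages, 1.34-fold. Clec4f, a lectin restricted to Kupffer cells, read 10.3 in Yap+/- and 10.1 in Yap+/+, 1.15-fold higher. Timd4, a marker of resident Kupffer cells, was 1.10-fold higher. It read 6.29 in Yap+/- and 6.15 in Yap+/+, lower than H2-Ea, so its signal may be background. The linear probe set values of the 12 markers, an array brightness without unit, summed to 13168 in Yap+/- and 10552 in Yap+/+. Of the 12 markers 11 had a smaller difference than H2-Eb1, the lowest of H2-Aa, H2-Ab1, H2-Eb1 and Cd74. H2-Eb1 was number 61 from the top among 9299 measured genes, so nearly all genes lay below it. The members were picked with this contrast known, so nothing is read from that count. General leukocyte genes were also higher, 4 of 4 measured against 48.8% of all measured genes, with a median of 0.41. Ptprc, the CD45 antigen, read 8.17 in Yap+/- and 7.86 in Yap+/+. Tyrobp, a signalling adaptor of myeloid cells, was 1.42-fold higher and Laptm5 1.51-fold, although other measured probe sets of Laptm5 gave 0.27 and -0.15. The linear values of all 5 leukocyte genes summed to 2125 in Yap+/- and 1558 in Yap+/+. In pooled tissue, more cells of a type and more RNA per cell cannot be told apart.

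Dendritic cell and B cell markers were mostly too dim to be read. Of 9 matched conventional dendritic cell genes 2 were measured, Batf3 at 0.13 and the activation marker Cd83 at -0.45. Cd83 read 5.83 in Yap+/- and 6.29 in Yap+/+, so it passed the minimum only through the Yap+/+ pool. It lay below H2-Ea in both pools. Itgax, the CD11c antigen, read 5.04 in Yap+/- and 4.94 in Yap+/+. Linear values of the list summed to 372 in Yap+/- and 371 in Yap+/+. To these sums 7 of the 9 genes contribute values under the minimum, so no likeness of the pools is read from them. Of 9 matched B cell genes only Ighm, the IgM heavy chain, was measured, at 7.41 in Yap+/- and 7.36 in Yap+/+. The other measured probe set of Ighm gave a log2 difference of -0.15. Ms4a1, the CD20 antigen, read 4.18 in Yap+/- and 4.09 in Yap+/+, Cd79a, part of the B cell receptor, read 4.03 in Yap+/- and 3.95 in Yap+/+, and 5 of the 9 lay under the median of the table on both arrays. The B cell list summed to 373 in Yap+/- and 374 in Yap+/+, sums to which all genes but Ighm contribute values under the minimum. Cd79b, the partner of Cd79a in the receptor, read 5.19 in Yap+/- and 5.24 in Yap+/+.

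Sinusoidal endothelial and other lists complete the comparison. Of 7 measured endothelial markers, 6 were higher in Yap+/- and 0 by 1.5-fold, against 48.8% and 0.699% of all measured genes, with a median of 0.20 and linear sums of 5168 in Yap+/- and 4379 in Yap+/+. Fcgr2b had 0.36 on its brightest probe set, with others from -0.14 to 0.08, Clec4g had 0.29 and Stab1 0.21, while Kdr had -0.03. Of 4 matched monocyte and neutrophil genes, S100a9, a calprotectin subunit of neutrophils, read 7.02 in Yap+/- and 5.58 in Yap+/+, the Yap+/+ value not shown to be above background, and Csf3r read 6.82 in Yap+/- and 6.86 in Yap+/+. This list summed to 365 in Yap+/- and 239.8 in Yap+/+, with 2 of its 4 genes under the minimum. Of 9 matched T and NK cell genes only Gzma, granzyme A, was measured, at 6.39 in Yap+/- and 5.96 in Yap+/+. Gzma passed the minimum only through the Yap+/- pool. The T and NK cell list summed to 381 in Yap+/- and 350.5 in Yap+/+, with 8 of its 9 genes under the minimum. Of 4 plasmacytoid dendritic cell genes, Bst2, which other cells express too, had 0.15 and Tcf4 0.01, and 2 were under the minimum. The 4 summed to 2044 in Yap+/- and 1880.2 in Yap+/+. All 5 matched hepatocyte genes lay within 0.04 of 0, and albumin, Alb, read 15.1 in both pools. The part of any of these cell markers in the class II difference was not tested.

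**Figure D4:**
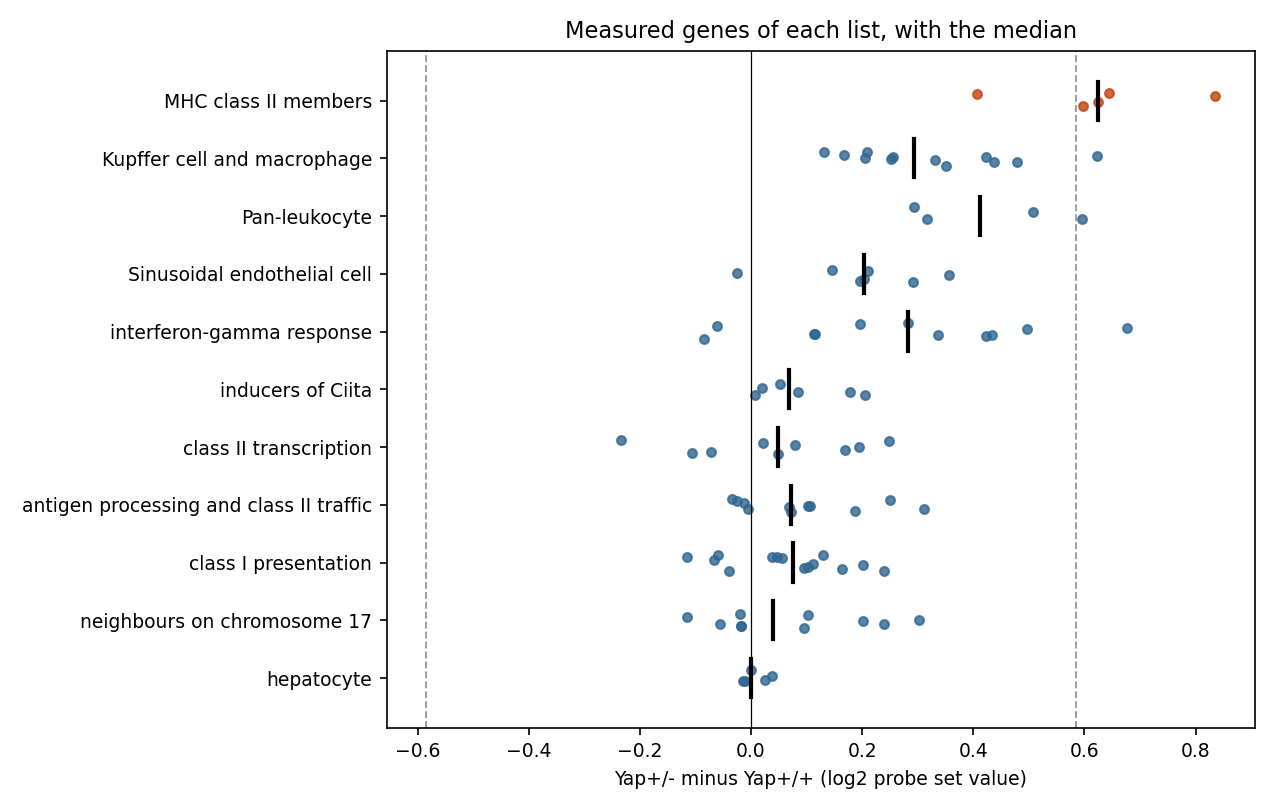
Differences between pools (Yap+/- minus Yap+/+, log2) of the measured genes of each list, 1 point per gene with a black bar at the median and dashed lines at 1.5-fold. The medians are 0.62 for the 5 measured class II members, 0.41 for general leukocyte genes, 0.29 for Kupffer cell and macrophage markers and 0.05 for class II transcription factors.

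Yap1 read 9.24 in Yap+/- and 9.40 in Yap+/+, and on its other probe set 5.77 in Yap+/- and 6.01 in Yap+/+, so that the genotype labels are only weakly checked by these arrays. As a mark of RNA and labelling quality, the log2 excess of 3-prime over 5-prime signal of array controls was 1.57 in Yap+/- and 1.37 in Yap+/+ for beta-actin. For Gapdh it was 0.49 in Yap+/- and 0.27 in Yap+/+. Both controls had the larger excess in Yap+/-, by 0.20 and 0.22, slightly above the usual disagreement of probe sets, 0.17. With 1 array per genotype, a difference in quality cannot be told apart from one of genotype. Its part in the class II values was not tested.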

How the data were processed

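Livers of 5 mice per genotype were pooled, per the labels, and biotin-labelled RNA of each pool was hybridised to 1 Affymetrix array. The authors deposited log2 values per probe set, made with RMA and Partek 6.5, per the submitters' processing notes. Their settings are not stated there. RMA includes quantile normalization, and the sorted columns differed by at most 0.047, so a global difference in RNA would be removed. No detection calls were used, and the number of arrays limits the precision.

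Of 45101 probe sets, 34945 carried exactly 1 gene symbol in the platform annotation, 932 several, 9160 none listed and 64 were array controls. A current RefSeq table held the gene identifier of 34741 of those with 1 symbol and changed 0 symbols. This gave 18193 genes, of which 9299 had a mean of at least 6. The difference is Yap+/- minus Yap+/+, and genes were counted at 1.5-fold. With 1 array per genotype there is no test. The members and the 17 gene lists were chosen with earlier results of these data known. Named are all members, up to 3 measured genes per list and direction, and genes listed beforehand. Cd80, Cd86, Cd40, Ifng, Jak1, Usf1, Ifngr2, Timd4 and genes at the ends of short lists were added to describe their lists. Counting was tested on simulated data. Tools were matplotlib 3.10.9, statsmodels 0.14.6, pandas 2.3.3, numpy 2.4.6 and Python 3.11.15. Alternatives were other probe set choices, filters of none or 7, median centring, lowess, quantile normalization, 64 added on the linear scale, and sizes of 2-fold and of 0.32 in log2.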

Additional observations from a re-analysis of the deposited data

How the results depend on the processing

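The differences of H2-Aa, H2-Ab1, H2-Eb1 and Cd74 were positive under every alternative that gave them a value, between 0.48 and 0.85 on the log2 scale. The median of the measured members lay between 0.49 and 0.76. Differences that moved by more than 0.17, the usual disagreement between probe sets, were those of dim genes. H2-DMa had 0.10 on its second probe set and 0.22 with 64 added, H2-Ob had 0.055 with 64 added, and Ciita had -0.073 on its second probe set and also without suffixed probe sets. The count of members at least 1.5-fold higher, 4, was 1 without suffixed probe sets, which leaves only H2-Eb1 and H2-DMa measured. It was 2 on second probe sets, 2 with 64 added and 0 at 2-fold. Genes of the fixed lists at least 1.5-fold higher, 4 together, numbered 1 with probe sets averaged, 0 on second probe sets and 2 with 64 added. Of all measured genes 0.699% were that much higher, and only genes with several probe sets have a second. At a log2 difference of 0.32, 17 list genes were higher and 1 lower, against 3.86% and 3.18% of all measured genes. At 2-fold 1 list gene was higher, S100a9, whose Yap+/+ value of 5.58 lay under the minimum. The lists were chosen with earlier results of these data known, so nothing is read from their counts. Of all measured genes, 65 were higher and 60 lower. Second probe sets gave 27 and 31, 64 added gave 31 and 32, a log2 difference of 0.32 gave 359 and 296 and 2-fold gave 9 and 21. The lower count was 113 without a filter and 39 at a minimum of 7. The causes of these shifts were not tested where the construction does not show them. List medians moved by less than 0.17 in all 85 recomputed values, though that of class I presentation turned to -0.04 without suffixed probe sets and that of inducers of Ciita to -0.07 on second probe sets. No paired analysis was possible because each genotype has 1 array. Signal near the median of the table limits what can be read of Ciita, H2-Oa and H2-Ob.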
